A study of Homo sapiens with 6 samples.

Results

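Enzymes that build cholesterol and fatty acids went both ways in HCT116 cells carrying a hairpin against NFX1-91, a splice form of the zinc finger repressor NFX1. The list held 51 genes of sterol and fatty acid synthesis and of its control, and 43 of them were measured among 11963 genes. A gene counted as measured when the deposited table held a probe set annotated to it and to no other gene, and the probe set with the highest mean over all 6 arrays stood for it. FDFT1, CYP51A1, STARD4, ACSS2, FADS1, ELOVL1, ACSL3 and GPAM had no such probe set and were not analysed here. Of the 43 measured members 11 rose and 11 fell past an adjusted p of 0.05 (limma, Benjamini-Hochberg over all genes), and 21 did not pass. Thus 51.2% of members passed, against 32.5% of all genes and 52.8% of genes at or above the median brightness. Among members that fell were INSIG1, TM7SF2, FASN and FADS2, and among members that rose ACAT2, MSMO1 and DHCR7. The list follows knowledge of the pathway and is not a complete roster of it.

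HCT116 cells are an established line from a human colon cancer. A lentiviral vector, FUGW, stably delivered either the NFX1-91 shRNA or a control shRNA against β-galactosidase, and both groups grew in the same medium with 10% fetal bovine serum. There were 3 arrays in each group, and nothing in the labels says whether they came from separate cultures or how many clones or infections they represent, so each p-value reflects array-to-array spread alone, and that spread may be technical. With so few arrays the precision is limited. In bulk RNA, fewer cells of a kind and less RNA per cell cannot be told apart.

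Cells sense sterols in the membrane of the endoplasmic reticulum. When sterols are scarce, SCAP carries the membrane-bound precursors of the SREBP transcription factors to the Golgi, where the protease encoded by MBTPS1 begins their release, and the freed factors switch on genes of cholesterol and fatty acid synthesis. When sterols are plentiful, INSIG proteins hold SCAP back. INSIG1 is itself a target of the SREBP factors, and serum in the medium supplies cholesterol.

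SREBP factors bind the sterol regulatory element, searched here as TCACNCCAC on both strands in the RefSeq promoter windows (GRCh38.p14), which run from 250 bases before to 50 after a gene's start. Windows were found for 38 of the 43 members, with none for ABCG1, ACAT2, DGAT1, FASN and SQLE. The motif stood in a window of 2 of those 38 genes (5.26%), against 1.5% of 9563 genes tested that had a window. The 2 were SREBF2, which fell, and ACSL1, which rose. Their 250 upstream bases are shown because both genes passed the test and carry the element, whose letters are in capitals; in ACSL1 they read on the opposite strand, and that window is 1 of 5 listed for the gene.
SREBF2, chr22:41832855-41833104, + strand: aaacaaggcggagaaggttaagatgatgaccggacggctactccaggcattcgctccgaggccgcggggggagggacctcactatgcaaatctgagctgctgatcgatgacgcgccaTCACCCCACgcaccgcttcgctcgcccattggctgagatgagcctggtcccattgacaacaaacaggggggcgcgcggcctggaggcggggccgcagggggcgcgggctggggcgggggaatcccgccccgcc
ACSL1, chr4:184805554-184805803, - strand: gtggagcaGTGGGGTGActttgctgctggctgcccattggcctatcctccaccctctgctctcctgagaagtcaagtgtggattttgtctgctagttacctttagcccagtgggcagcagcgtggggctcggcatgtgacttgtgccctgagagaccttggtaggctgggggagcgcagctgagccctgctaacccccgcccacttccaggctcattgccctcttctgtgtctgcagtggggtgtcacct
Counted from the start that its window is built on, the first base of the match lay at position -133 in SREBF2 and -242 in ACSL1. That ACSL1 window is the farthest downstream of the 5 listed, and no other ACSL1 window held the motif. A match is a stretch of letters, not a measured binding site, and its absence elsewhere says only that these letters are not in that window. The NF-Y box CCAAT, which often accompanies the sterol element, was in a window of 24 of the 38 members (63.2%) and of 44.2% of all genes. The E-box CACGTG was in 15.8% of members and 12% of all genes, and the SP1 box GGGCGG in 86.8% and 69.8%. The NF-Y box was in 7 of 9 members that rose, 7 of 10 that fell and 10 of 19 that did not pass (52.6%). Over all genes its share was 43.8% of those that rose, 47.6% of those that fell and 43.3% of the rest. A gene counted when any of its windows held the motif, so more windows gave more places for a match. Members that rose had a median of 2 windows, against 1 for members that fell, for the other members and for all genes. Member windows were richer in G and C, with a median of 67.3% against 63.3%.

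**Figure D1:**
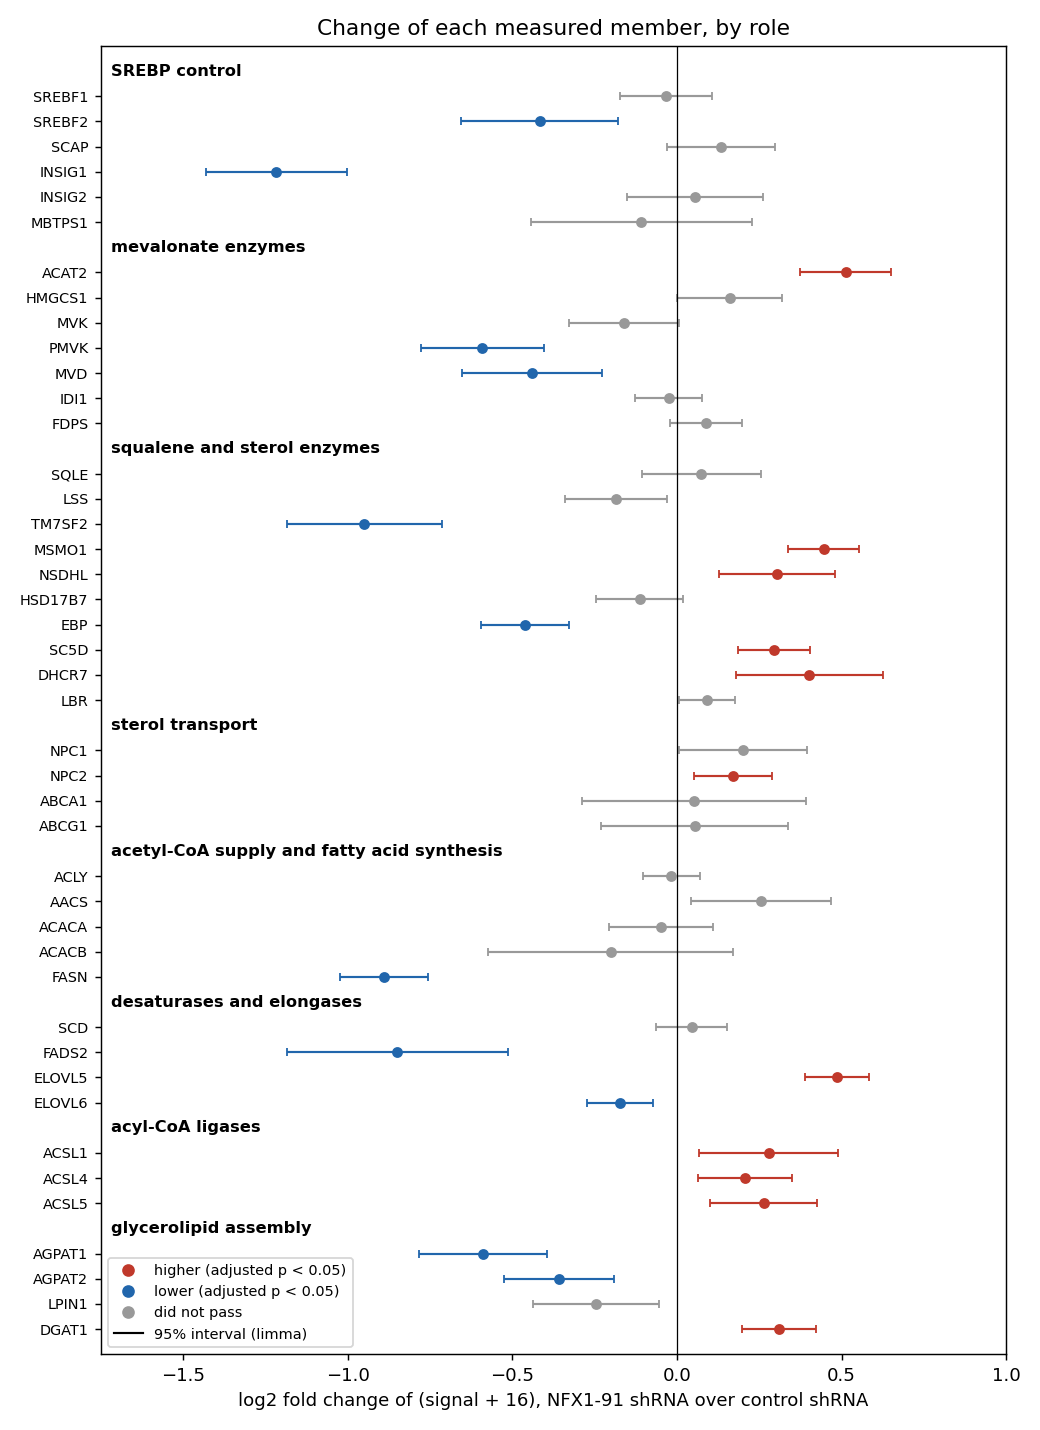
Log2 fold change of each of the 43 measured members (x axis, NFX1-91 shRNA over control shRNA, on the log2 of signal plus 16) with its 95% interval from limma, by role (y axis). Red points were higher and blue points lower at an adjusted p under 0.05, 11 of each, and grey points did not pass; INSIG1 lies farthest from 0 at -1.22.

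The share of members that passed was 51.2%, against a background of 32.5% of all genes (14.7% higher and 17.8% lower). Members were bright genes, however, with a median at percentile 73.5 of brightness. Among the 5982 genes at or above the median brightness 52.8% passed, 23.7% higher and 29.0% lower, and of the 39 members in that range 21 passed (53.8%). The members' share was thus close to that of genes of like brightness. The role lists below held 3 to 10 measured genes each. Their shares past the threshold, from 20% to 100%, stand against these same backgrounds. Their median absolute log2 fold change was 0.21, the same as among those brighter genes, and their median change was 0.04, against 0.00 over all genes. The arrays of both groups did not overlap for 27 of the 43 members, or 62.8%, against 43.5% of all genes and 63.6% of the brighter ones. Calls with an absolute log2 fold change of at least 0.5 made up 7 of 43 members (16.3%), 12.1% of all genes and 16.8% of the brighter ones. Of those 7 members 1 was higher and 6 lower, and such calls leaned lower in the background too, with 4.46% of all genes higher and 7.62% lower, and 5.75% and 11.1% of the brighter ones. Higher members numbered 7 without control array 2, 7 without NFX1-91 array 2 and 7 without the variance trend. Over all genes the higher calls dropped in those settings from 1762 to 1339, 1265 and 1471, and the lower ones from 2128 to 1736, 1650 and 1877. Lower members ran from 9 to 12 over all alternatives.

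**Figure D2:**
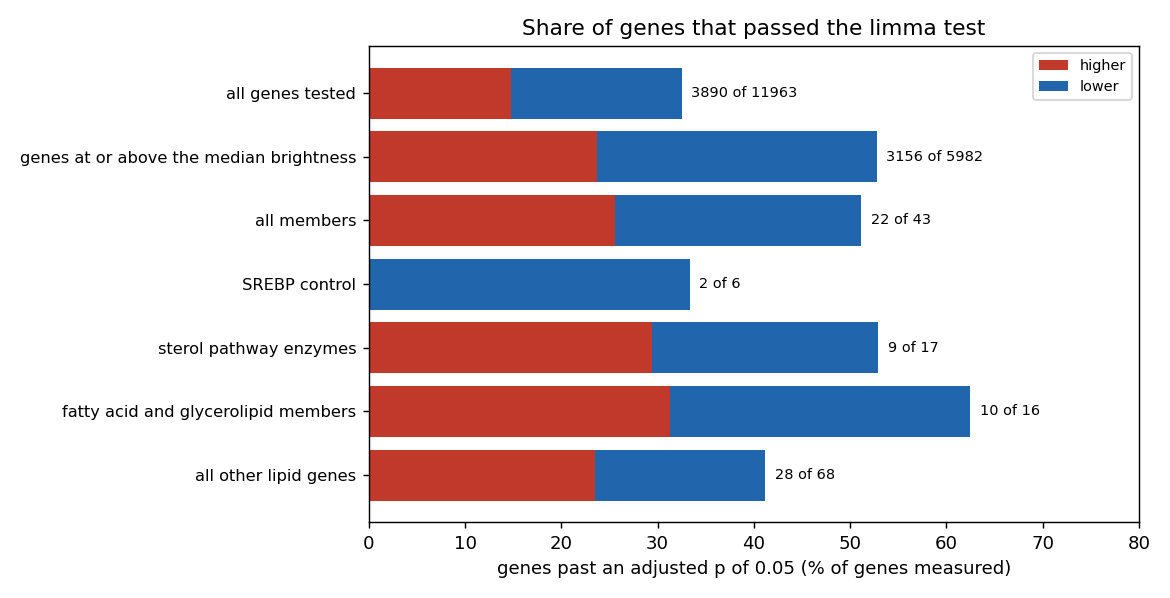
Share of measured genes past an adjusted p of 0.05 (x axis, percent; red higher, blue lower) for all genes, for the brighter genes, for the members and for other lipid genes, with the number that passed of the number measured. The bar of all members, 22 of 43, is about as long as that of genes at or above the median brightness, 3156 of 5982.

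The control circuit was read first. INSIG1, the sterol-responsive retention protein, had scaled signals (array mean 500) of 470, 521 and 548 on the control arrays and of 190, 205 and 241 on the NFX1-91 arrays. Every NFX1-91 array lay far below every control array. Its log2 change was -1.22 (SE 0.0952, adjusted p = 1.24e-05 by limma), a fall of 2.32-fold, and it ranked 69th in size among 2128 genes that fell. All 3 of its probe sets fell, with log2 fold changes of -1.22, -0.996 and -0.846.

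INSIG2, the sister protein that is not driven by SREBP in the same way, read 175, 194 and 205 on control arrays and 188, 192 and 217 on NFX1-91 arrays. The groups overlapped, and its log2 fold change of 0.05 did not pass (95% interval -0.15 to 0.26, adjusted p = 0.725 by limma). Within each array the log2 ratio of INSIG1 to INSIG2 was lower by 1.27 (SE 0.0374) under the NFX1-91 hairpin. The exact two-sided permutation p of that difference was 0.1, the smallest that 3 against 3 arrays allow. It was 0.2 after adjustment over the 6 pairs of sister genes compared, which were chosen after the values were seen. Among these pairs the ratio of ELOVL5 to ELOVL6, by brightest probe sets, was higher by 0.66 (exact two-sided permutation p = 0.1). The ratio of ACACB to ACACA was lower by 0.15 and that of AGPAT1 to AGPAT2 by 0.23 (exact two-sided permutation p = 0.3 each).

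SREBF2, which encodes the SREBP form that favours cholesterol genes, read 371, 464 and 506 on control arrays and 335, 345 and 305 on NFX1-91 arrays. The groups did not overlap, but the lowest control array came near the highest NFX1-91 array. It fell by 0.42 (SE 0.106, adjusted p = 0.0130 by limma), and its other probe set fell by 0.68. The call was lost without control array 2 (adjusted p = 0.0579), control array 3 (0.0520) or NFX1-91 array 3 (0.0547). SREBF1, whose products favour fatty acid genes, had 882, 865 and 776 against 785, 821 and 857. Its arrays were interleaved, and the log2 fold change of -0.03 did not pass (adjusted p = 0.747 by limma). The ratio of SREBF2 to SREBF1 within arrays was lower by 0.38 (SE 0.195, exact two-sided permutation p = 0.3, and 0.3 over the 6 pairs).

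SCAP, the escort protein, read 411, 359 and 374 on control arrays and 392.5, 429 and 437 on NFX1-91 arrays. These ranges overlapped, and its log2 fold change was 0.13 (adjusted p = 0.210 by limma). MBTPS1, the first protease, had control signals of 1305, 860 and 1422 and NFX1-91 signals of 1069, 1057 and 1126. Control array 2 was low and the others high, which left a log2 fold change of -0.11 (adjusted p = 0.652 by limma). Without that array it was -0.33 (adjusted p = 0.00504), and the gene's dimmer probe set fell by 0.44. Of the 6 control genes 2 fell and 0 rose.

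**Figure D3:**
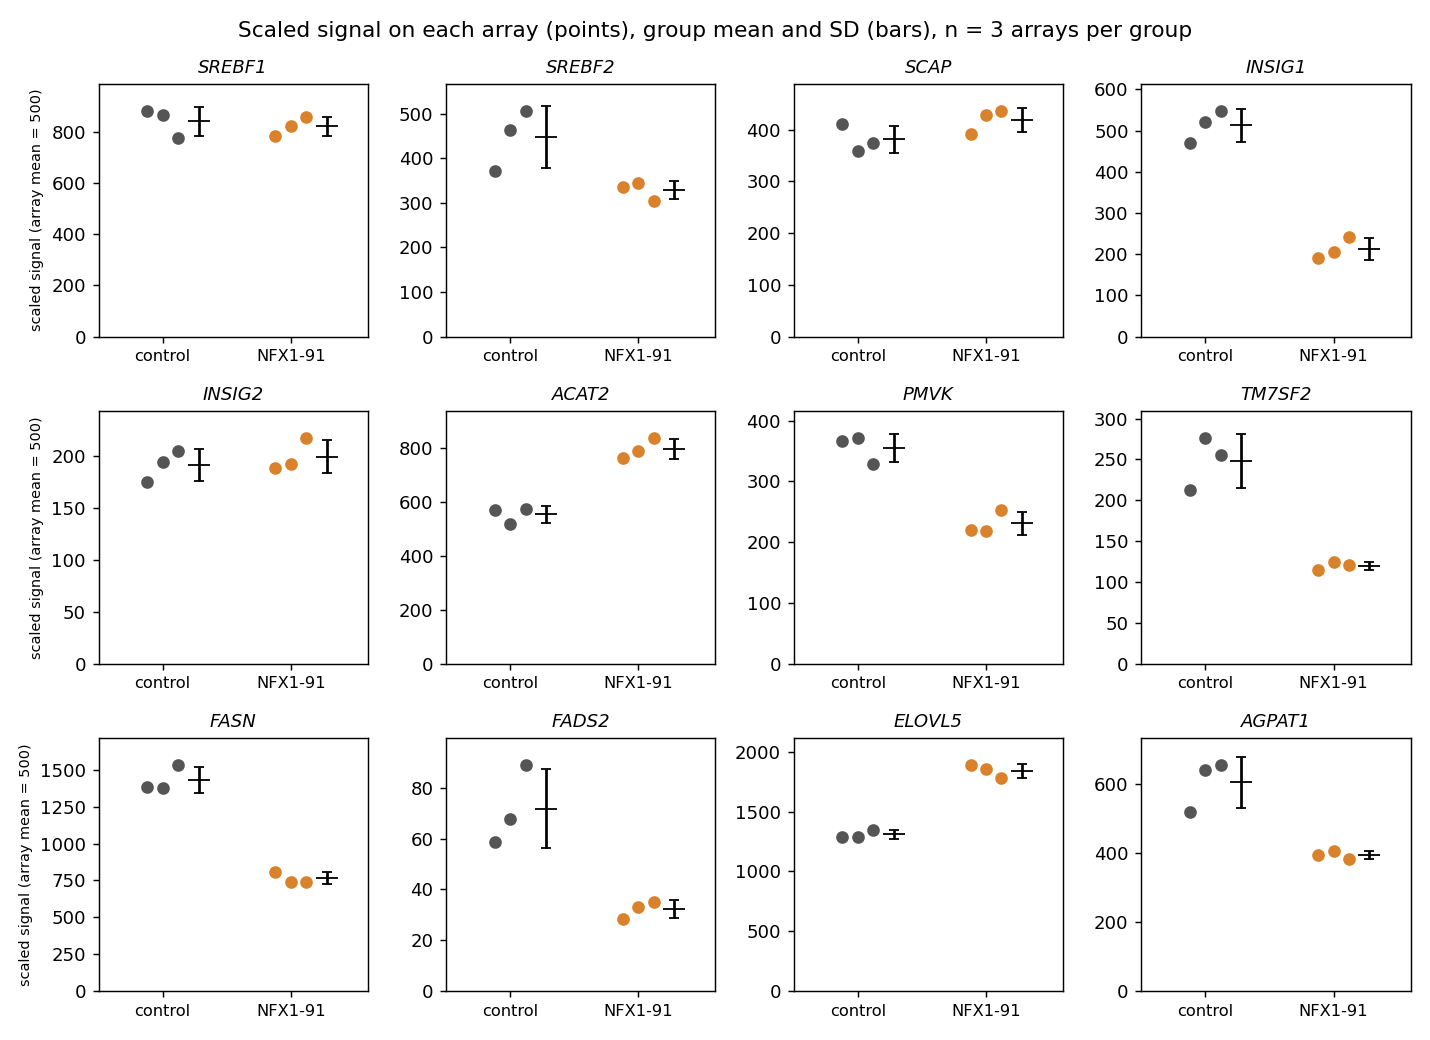
Scaled signal (y axis, array mean 500, from 0) of 12 members on each control array (grey) and each NFX1-91 array (orange), with the group mean and SD, n = 3 per group. INSIG1, PMVK, TM7SF2, FASN, FADS2 and AGPAT1 lie lower and ACAT2 and ELOVL5 (by their brightest probe sets) higher on all NFX1-91 arrays, while the points of SREBF1, SCAP and INSIG2 overlap.

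The mevalonate enzymes, which turn acetyl-CoA into the isoprenoid farnesyl diphosphate, had 1 higher, 2 lower and 4 that did not pass, of 7. ACAT2, the cytosolic thiolase that joins acetyl-CoA units at the entry, had signals of 570, 515 and 572 on control arrays and 763, 786 and 836 on NFX1-91 arrays. All NFX1-91 arrays were higher, which came to 0.51 on the log2 scale (SE 0.0619, adjusted p = 0.000161 by limma). PMVK, phosphomevalonate kinase, read 366, 372 and 329 against 221, 219 and 253. Here all NFX1-91 arrays were lower, and the gene fell by 0.59 (SE 0.0834, adjusted p = 0.000435 by limma). MVD, the decarboxylase that follows PMVK, fell by 0.44, from 188 ± 14.3 to 134 ± 10.0 (SD, n = 3 per group).

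By their brightest probe sets the other 4 enzymes of that stretch did not pass. HMGCS1, the synthase of HMG-CoA, had a log2 fold change of 0.16 that did not pass (adjusted p = 0.123 by limma). Its dimmer probe set, however, rose by 0.47 (adjusted p = 0.00339 over probe sets), and the mean of both passed (0.32). Mevalonate kinase MVK read -0.16, and passed without NFX1-91 array 1 (-0.24, adjusted p = 0.0187), whereas the mean of its 3 probe sets was 0.02. IDI1 (-0.02), the isomerase, and FDPS (0.09), farnesyl diphosphate synthase, did not pass.

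From squalene on to cholesterol 4 of 10 measured enzymes rose, 2 fell and 4 did not pass. That was 60% past the threshold, against 32.5% of all genes and 52.8% of the brighter ones. TM7SF2, a sterol C14 reductase, had signals of 212, 276 and 256 on control arrays and 115, 125 and 121 on NFX1-91 arrays. Each NFX1-91 array was lower than each control array, and the fall was 0.95 on the log2 scale (SE 0.105, adjusted p = 9.30e-05 by limma). LBR, the lamin B receptor, catalyses the same reduction. It read 1924, 1905 and 1859 against 1990, 2073 and 1996, a log2 fold change of 0.09 that did not pass (adjusted p = 0.104 by limma). The within-array log2 ratio of TM7SF2 to LBR was lower by 1.04 (SE 0.116, exact two-sided permutation p = 0.1, the smallest possible, and 0.2 over the 6 pairs).

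EBP, the sterol isomerase, fell by 0.46 from 891 ± 41.0 to 643 ± 34.7 (SD, n = 3 per group; adjusted p = 0.000235 by limma), and 2 of its 3 probe sets fell. MSMO1, which oxidises the C4 methyl groups of sterols, rose by 0.45 from 1216 ± 58.7 to 1660 ± 49.6 (adjusted p = 8.56e-05 by limma). NSDHL, which acts with MSMO1 at C4, rose by 0.30 by its brighter and by 0.53 by its other probe set. The brighter one did not pass without control array 3 (adjusted p = 0.0522). Thus MSMO1 and NSDHL were both higher, and the third enzyme of C4 demethylation, HSD17B7, had a log2 fold change of -0.11 that did not pass.

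The last steps were higher as well. SC5D, the desaturase before the final reduction, rose by 0.30 (adjusted p = 0.00111 by limma), though its dim second probe set did not pass (0.12). The call of SC5D was lost in 2 of 16 alternative fits (adjusted p up to 0.682 by limma). DHCR7, which makes cholesterol from its precursor, rose by 0.40 from 574 ± 86.0 to 760 ± 62.0, and its second probe set rose by 0.39. The call of DHCR7 was lost without control array 2 or NFX1-91 array 1 (adjusted p = 0.0520 and 0.0518). SQLE, the oxygenase that starts sterol ring formation and a rate-controlling step, had a log2 fold change of 0.07 (adjusted p = 0.554 by limma). It just passed without control array 3 (0.17, adjusted p = 0.04999). LSS, the cyclase, read -0.18 (adjusted p = 0.0700 by limma) with groups that did not overlap, and passed without control array 1 (-0.23, adjusted p = 0.0328), while a dim probe set of LSS rose by 0.43.

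In sterol transport 1 of 4 measured genes rose and 3 did not pass. NPC2, the soluble lysosomal cholesterol carrier, rose by 0.17 from 1702 ± 95.4 to 1917 ± 83.3 (adjusted p = 0.0315 by limma). That call was lost without control array 1 (adjusted p = 0.0704), NFX1-91 array 1 (0.109) or NFX1-91 array 2 (0.113). NPC1, its membrane partner, had a log2 fold change of 0.20 (adjusted p = 0.114), which passed without NFX1-91 array 1 (0.28, adjusted p = 0.0284). The efflux pumps ABCA1 and ABCG1, known targets of the oxysterol receptors, read 0.05 each at signals between 28.8 and 47.8, at percentiles 32.8 and 33.7 of brightness. At that brightness their 95% intervals, -0.29 to 0.39 and -0.23 to 0.34, leave room for moderate changes.

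In fatty acid synthesis FASN was the one gene of 5 that passed. FASN, the enzyme that builds palmitate, had signals of 1383, 1375 and 1534 on control arrays and 811, 742 and 741 on NFX1-91 arrays. The groups lay far apart, and the log2 change was -0.89 (SE 0.0593, adjusted p = 5.21e-06 by limma). Its dim second probe set read -0.37 and did not pass. ACLY, which supplies cytosolic acetyl-CoA, had a log2 fold change of -0.02 (95% interval -0.10 to 0.07). AACS, which activates acetoacetate, read 0.25 (adjusted p = 0.0679 by limma) with no overlap of the groups. It passed without NFX1-91 array 1 (0.35, adjusted p = 0.0117), with quantile normalization, with centring, without dim genes and with a robust prior.

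The carboxylases that make malonyl-CoA did not pass by their brightest probe sets. ACACA read -0.05 there (553, 488 and 486 on control arrays and 479, 473 and 520 on NFX1-91 arrays, which overlap). A dimmer ACACA probe set, however, rose from 180 to 370, by 0.98 on the log2 scale (adjusted p = 0.000126 over probe sets), and the mean of both was 0.46 and passed. The probe sets of this gene thus disagreed, and which transcripts each reads was not tested. ACACB, the mitochondrial form, read -0.20 at a dim signal and did not pass.

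Among desaturases and elongases 1 rose, 2 fell and 1 did not pass, of 4. FADS2, the delta-6 desaturase of polyunsaturated fatty acids, had signals of 58.6, 67.6 and 88.9 on control arrays and 28.5, 33.2 and 35.2 on NFX1-91 arrays. All NFX1-91 arrays were lower, and the gene fell by 0.85 (SE 0.149, adjusted p = 0.00168 by limma). It was a dim gene at percentile 36.6, so the offset shrank its change, which was -1.11 with an offset of 1 and -0.49 with an offset of 64. FADS3, its neighbour on chromosome 11 and not a member, rose by 0.59.

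SCD, which makes oleate from stearate, read 4126, 3977 and 4537 on control arrays and 4390, 4221 and 4411 on NFX1-91 arrays. These overlapped, and the log2 fold change of 0.04 did not pass (95% interval -0.06 to 0.15); none of its 4 probe sets passed. ELOVL5, which lengthens polyunsaturated chains, had 1287, 1288 and 1350 against 1889, 1854 and 1777. It was higher on all NFX1-91 arrays, with a log2 change of 0.49 (SE 0.0432, adjusted p = 2.51e-05 by limma). A dimmer ELOVL5 probe set fell by 0.65 (adjusted p = 0.00393 over probe sets), and the mean of its 3 probe sets was -0.08 and did not pass. The direction of ELOVL5 thus depends on the probe set. ELOVL6, which lengthens palmitate, fell by 0.17 (adjusted p = 0.0136 by limma), and did not pass without control array 2 (adjusted p = 0.0690), without NFX1-91 array 2 (0.0580) or by the mean of its probe sets (0.145).

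**Figure D4:**
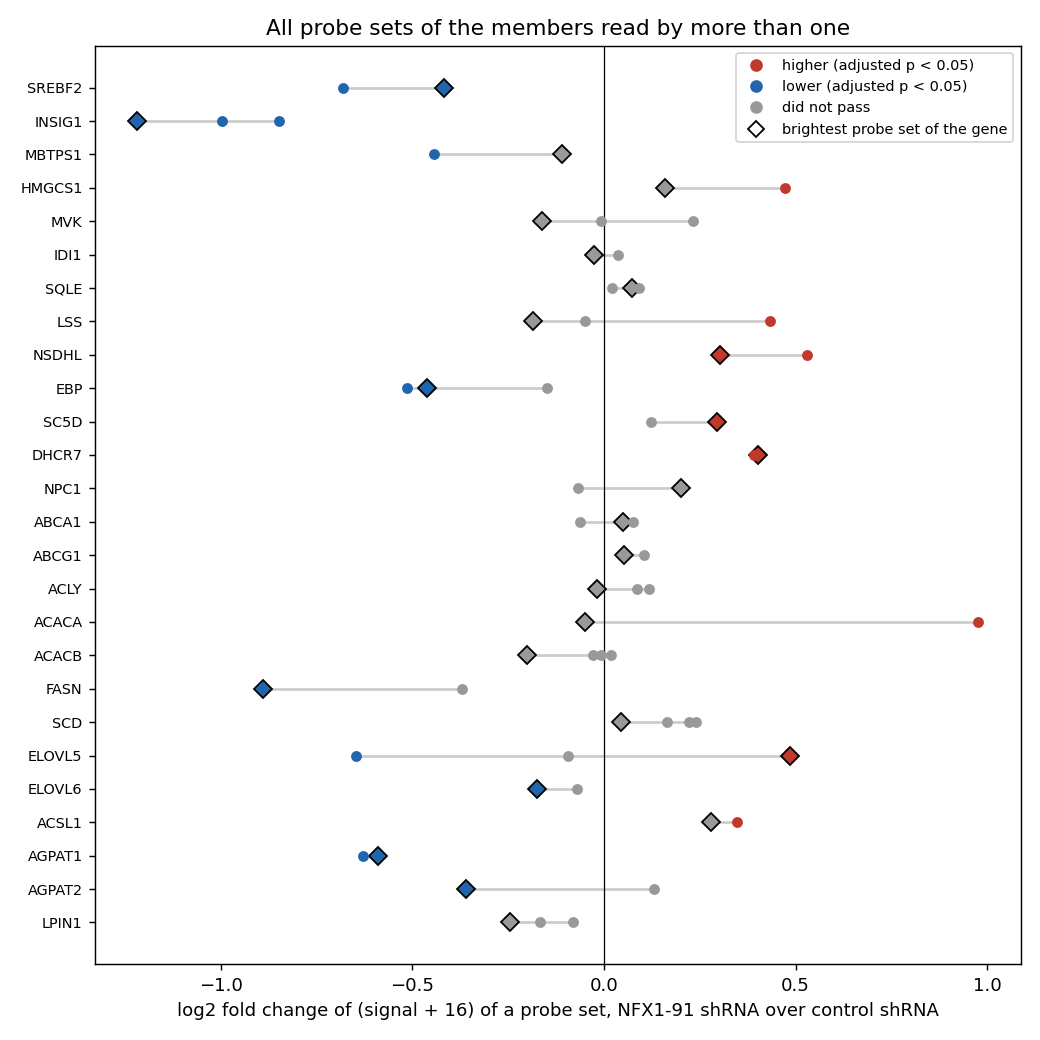
Log2 fold change (x axis, NFX1-91 shRNA over control shRNA) of every single-gene probe set of the 26 members with more than 1, adjusted over probe sets; diamonds mark the brightest, red is higher, blue lower, grey did not pass. The 3 INSIG1 probe sets all lie to the left of 0, while those of ELOVL5 run from -0.65 to 0.49 and those of ACACA from -0.05 to 0.98.

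Over all probe sets 25.7% passed. Of the 22 members that passed 12 had more than 1 probe set. Another probe set passed in the same direction for 7 of them (SREBF2, INSIG1, NSDHL, EBP, DHCR7, ACSL1 and AGPAT1) and in the opposite direction for ELOVL5. The brightest probe set of ACSL1, however, did not itself pass in the fit over probe sets (adjusted p = 0.0666 by limma). For FASN, SC5D, ELOVL6 and AGPAT2 no other probe set passed.

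Of the acyl-CoA ligases, which activate fatty acids for use, the 3 measured members were higher by small amounts. Higher calls made up 14.7% of all genes and 23.7% of the brighter ones. ACSL6, a ligase outside the members, read -0.08 at a dim signal and did not pass (adjusted p = 0.757 by limma). ACSL1 rose by 0.28 from 240 ± 13.9 to 296 ± 35.2 (adjusted p = 0.0468 by limma), ACSL4 by 0.21 (0.0311) and ACSL5 by 0.26 (0.0190). For each of them all NFX1-91 arrays were higher. These calls were frail: ACSL1 did not pass without any 1 of 5 arrays, control array 1, 2 or 3 or NFX1-91 array 2 or 3, with adjusted p up to 0.141. ACSL4 did not pass without control array 1 or 2 or NFX1-91 array 2 (up to 0.145). ACSL5 did not pass without control array 2 or NFX1-91 array 2 or 3 (up to 0.0765).

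Glycerolipid assembly had 1 higher, 2 lower and 1 that did not pass, of 4. AGPAT1, which adds the second acyl chain, read 518, 639 and 654 on control arrays and 394, 405 and 383 on NFX1-91 arrays. It was lower on all NFX1-91 arrays and fell by 0.59 (SE 0.0868, adjusted p = 0.000572 by limma), and its other probe set fell by 0.63. AGPAT2, a second enzyme of that step, fell by 0.36 from 1036 ± 64.2 to 805 ± 80.2 (adjusted p = 0.00430 by limma). Its second probe set read 0.13, and the mean of both did not pass (-0.11). The phosphatase LPIN1 had a log2 fold change of -0.25 just outside the threshold (adjusted p = 0.0510 by limma) with no overlap of the groups, and it passed without NFX1-91 array 3 (-0.30, adjusted p = 0.0313). DGAT1, which adds the last acyl chain of triglycerides, rose by 0.31 from 652 ± 16.3 to 812 ± 22.6 (adjusted p = 0.00105 by limma).

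Other lipid genes outside the members were counted from lists by role. Of 68 measured 16 rose, 12 fell and 40 did not pass, or 41.2% past the threshold, with a median log2 fold change of 0.02. The background was 32.5% of all genes and 52.8% of the brighter ones, and these 68 had a median at percentile 70.2 of brightness. In turnover at the endoplasmic reticulum and AMPK control 3 of 10 rose and 2 fell. FAF2, which takes part in the degradation of INSIG1 and other membrane proteins, fell by 1.04 from 839 ± 35.8 to 402 ± 37.3 (adjusted p = 7.10e-06 by limma). PRKAB2, a regulatory subunit of the energy sensor AMPK, rose by 0.89 at a dim signal, from 38.5 ± 9.46 to 84.3 ± 13.5. The isoprenoid branch had 2 higher and 1 lower of 8, with PGGT1B, a subunit of the geranylgeranyl transferase, up by 0.85.

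Sterol sensing and storage had 1 higher and 1 lower of 8, and further fatty acid supply and modification 3 and 4 of 14, FADS3 among them. Phospholipid and glycerolipid assembly beyond the members had 3 higher and 2 lower of 13. Fatty acid oxidation had 4 higher and 2 lower of 15, and SLC25A20, the carnitine carrier of mitochondria, rose most, by 0.73. All 5 genes named here from those lists for their size passed under every alternative that gave a value, with adjusted p up to 0.0168. For PGGT1B, PRKAB2 and SLC25A20 the mean of probe sets and leaving out shared probe sets gave unchanged log2 fold changes. For those genes these settings were no separate check.

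The hairpin's own target and the cells' identity were checked in the same table. The brightest of 3 NFX1 probe sets had a log2 fold change of -0.13 and the next brightest of -0.06. Neither passed (adjusted p = 0.400 and 0.775 by limma over probe sets). Only the dimmest fell, by 0.60 (adjusted p = 0.0137 over probe sets). That dimmest one read 19.6 ± 4.17 on control arrays and 7.42 ± 2.48 on NFX1-91 arrays (SD, n = 3 per group), close to or below the offset of 16, so the size of its change depends on the offset. The splice forms behind each of the 3 were not tested. Of 12 colon epithelial markers EPCAM, KRT8, KRT18 and KRT19 were bright, while VIL1, CDH17, LGALS4 and GPA33 were below the offset of 16 in both groups. Their summed signal was 23303 to 24181 on control arrays and 28003 to 28182 on NFX1-91 arrays, with KRT8 and KRT18 higher and EPCAM, CDH1 and KRT20 lower. The summed signal of 7 fibroblast markers was 254 to 344 against 288 to 336, of 5 blood cell markers 89.1 to 107 against 112 to 138, and of 4 endothelial markers 67.9 to 92.8 against 60.7 to 79.2. For 6 hepatocyte markers it was 131 to 160 against 159 to 171, and for 5 adipocyte markers 153 to 169 against 168 to 180. Passing markers of these lists were HBB (0.45), KDR (-0.54) and SERPINA1 (0.55), all of them dim. The part of these shifts in the lipid gene changes was not tested.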

How the data were processed

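Biotin-labelled cRNA from 5 ug of total RNA was hybridised to Affymetrix arrays, 3 per group, per the labels' protocols. The authors' deposited intensity values are linear and cover 22215 probe sets. They add up to 1 on every array and are thus shares of an array's total. Probe summarisation and background correction are not stated in the labels or the table. Each array repeats 1 low value 397 to 451 times, which cannot order the dimmest probe sets.

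For analysis, shares were multiplied to an array mean of 500 (chosen with the values in view) and transformed to log2(signal + 16), without further normalization. Folds therefore understate the change of dim genes. Genes were named through the platform annotation: 19064 probe sets had 1 symbol, 1043 several and 2108 none, and 19052 matched a RefSeq gene identifier. The brightest single-gene probe set stood for a gene. Groups were compared with limma 3.58.1 (R 4.3.3; variance trend, two-sided, Benjamini-Hochberg over 11963 genes, threshold 0.05), and probe sets likewise over all probe sets. Figures used Python 3.11.15 and matplotlib 3.10.9. Groups and replicate numbers follow the sample titles; whether same-numbered arrays deviate together was checked, and the correlations were -0.03, 0.08 and -0.02.

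The members, lists and the rule for named genes were chosen with earlier results of these data known. That rule gave all 6 arrays for members that passed with an absolute log2 change of at least 0.5 and for SREBF1, SREBF2, SCAP, INSIG1 and INSIG2, and named other lipid genes by the same size; array values of ACACA, ELOVL5, LBR, MBTPS1 and SCD were added after they were seen. Data were simulated from these genes' means and spreads, in 5 sets of 200 changed among 11963. Of the changes 22.0% of 1.25-fold, 55.6% of 1.5-fold, 82.8% of 2-fold and 98.8% of 4-fold were recovered, and 3.38% of calls were false. In the data 32.5% of all genes passed, far more than were changed in the simulation. The simulated noise was independent between genes and came from array-to-array spread alone. Those shares therefore do not give the recovery or the false calls of the real comparison. Alternatives were quantile normalization, median centring, no genes below percentile 40 of brightness, offsets of 1 and 64, no trend, a robust prior, the mean of probe sets, no shared probe sets where another kind exists, a replicate block, each array left out, and a threshold of 0.01. Protein sequences were not used here.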

Additional observations from a re-analysis of the deposited data

How the results depend on the processing

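Of the 22 members that passed, 11 kept call and direction under every alternative tried, and 315 of 351 values kept both. The 11 were INSIG1, FASN, TM7SF2, FADS2, PMVK, MVD, EBP, AGPAT1, ACAT2, MSMO1 and DGAT1. However, TM7SF2, FADS2, PMVK, MVD, ACAT2, MSMO1 and DGAT1 had no other probe set. For them the mean of probe sets and leaving out shared probe sets reused the same signals. Those settings therefore could not overturn these calls. Among the 11, only INSIG1, FASN, EBP and AGPAT1 could be checked by other probe sets. Higher members numbered 5 at an adjusted p under 0.01, where 1136 genes of all were higher, and 7 without a variance trend; leaving out single arrays gave 7 to 11 higher members. Centring each array on its median moved the share of higher among all calls from 45.3% to 51.1%. Signs that changed belonged to members that had not passed, except ELOVL5, and the cause was not tested. With centring IDI1 read 0.0044 and ACLY 0.0124. By the mean of probe sets MVK was 0.0210, IDI1 0.00602, LSS 0.0659, ACLY 0.0630, ACACA 0.464 (adjusted p = 0.00183) and ELOVL5 -0.0844. Without single arrays SREBF1 ran from -0.0890 to 0.00164, INSIG2 from -0.00591 to 0.101, ACACA from -0.0904 to 0.0108, ABCA1 from -0.0734 to 0.181, ACLY from -0.0387 to 0.0111, MBTPS1 from -0.326 to 0.0315 and ABCG1 from -0.000263 to 0.121. Same-numbered arrays share only a number. With that replicate block 8 members were higher and 11 lower, and NPC2, ACSL1 and ACSL4 did not pass (adjusted p = 0.0557, 0.0518 and 0.0698); over all genes 1629 were higher and 1969 lower. FADS2 has no value without dim genes. Signal over background limits FADS2, ABCA1, ABCG1 and ACACB, the dimmest members.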
